A study of Mus musculus with 2 samples.

Results

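The genes described here were 10 mouse genes from families known for storing latent TGF-β or for tuning its signal: the latent TGF-β binding proteins *Ltbp1*, *Ltbp2*, *Ltbp3* and *Ltbp4*, the membrane anchors *Lrrc32* and *Nrros*, the secreted serine proteases *Htra1* and *Htra3*, and the SMAD corepressors *Ski* and *Skil*. They were chosen by symbol from the 32287 features of the expression tables, where each symbol matched 1 row, and their unique molecular identifiers (UMIs, each a tag for 1 captured transcript) were summed per aorta and cell type. All 10 passed the filter on low counts that left 13966 genes for testing. The samples were the thoracic aortas of 2 wild-type GFPiSMC mice (group WT, replicates 1 and 2) on the C57BL/6J strain. Both mice carried the tamoxifen-inducible *Myh11*-CreERT2 transgene, which is driven by a smooth muscle promoter, and the mT/mG reporter, and both received tamoxifen at 1 mg per day for 5 days from 3 weeks of age and were studied at 12 weeks. In the wider study such mice served as the controls with intact TGF-β signaling for mice lacking its receptors in smooth muscle cells (SMCs). No receptor-deleted sample enters here. Cell types of the same 2 wild-type aortas are compared, and n = 2 for every value with an error.

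TGF-β leaves the cell bound to its propeptide as an inactive complex. LTBPs disulfide-link to that complex and tie it to fibrillin and fibronectin in the matrix, except that LTBP2 does not bind latent TGF-β and is instead an elastic fiber and fibrillin protein. LRRC32 (also GARP) and NRROS (also LRRC33) do the same task at the cell surface, and integrins, proteases and thrombospondin release the active ligand. HTRA1 and HTRA3 digest matrix proteins and have been linked to lower TGF-β signaling, whereas SKI and SKIL (SnoN) block SMAD-driven transcription in the nucleus. In the aorta the pathway is known for its part in elastic fiber assembly and in inherited aneurysm syndromes.

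The genes lie on 8 chromosomes, and their positions are given in GRCm38 coordinates. *Ltbp1* spans chr17:75005568-75392512 on the plus strand, *Ltbp2* chr12:84783212-84876532 on the minus strand, *Ltbp3* chr19:5740904-5758532 on the plus strand and *Ltbp4* chr7:27305136-27337692 on the minus strand. *Lrrc32* (chr7:98489283-98502181, plus) and *Htra1* (chr7:130936111-130985660, plus) share chromosome 7 with *Ltbp4*. *Nrros* lies at chr16:32142785-32165594 (minus), *Htra3* at chr5:35652023-35679782 (minus), *Ski* at chr4:155154075-155222592 (minus) and *Skil* at chr3:31095058-31122577 (plus). None overlaps another gene on its own strand, but *Ltbp2* overlaps D030025P21Rik and *Htra1* overlaps *Fgfr2* on the other strand. Whether the counting used strand was not given in the sources used here, so reads of overlapping pairs may not have been told apart.

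RefSeq promoter windows (GRCm38.p6, 250 bases before to 50 after a transcript start) were held for 8 of the 10 genes, in 11 windows; *Lrrc32* and *Skil* were not in the table. Windows of 3 LTBP genes are shown because their transcripts peaked in different cell types (below): *Ltbp1* in SMCs, *Ltbp4* in endothelial cells and *Ltbp3* at like levels in all wall-building types. *Ltbp1* has 2 starts, one at the head of the gene and one inside it, and libraries read from the 3′ end cannot separate their transcripts. Capitals mark the motifs found.
Ltbp1 upstream start, chr17:75005279-75005578, plus: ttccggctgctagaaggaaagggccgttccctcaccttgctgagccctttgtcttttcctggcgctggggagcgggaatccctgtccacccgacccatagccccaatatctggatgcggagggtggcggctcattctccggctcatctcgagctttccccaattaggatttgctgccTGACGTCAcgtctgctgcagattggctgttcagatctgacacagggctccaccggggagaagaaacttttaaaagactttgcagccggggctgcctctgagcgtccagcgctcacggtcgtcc
Ltbp1 internal start, chr17:75178531-75178830, plus: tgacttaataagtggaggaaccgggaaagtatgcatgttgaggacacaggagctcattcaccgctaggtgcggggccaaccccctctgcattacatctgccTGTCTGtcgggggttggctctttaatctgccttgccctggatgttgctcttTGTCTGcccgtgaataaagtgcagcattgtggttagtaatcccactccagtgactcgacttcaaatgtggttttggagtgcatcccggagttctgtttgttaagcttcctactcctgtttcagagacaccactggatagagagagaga
Ltbp3, chr19:5740650-5740949, plus: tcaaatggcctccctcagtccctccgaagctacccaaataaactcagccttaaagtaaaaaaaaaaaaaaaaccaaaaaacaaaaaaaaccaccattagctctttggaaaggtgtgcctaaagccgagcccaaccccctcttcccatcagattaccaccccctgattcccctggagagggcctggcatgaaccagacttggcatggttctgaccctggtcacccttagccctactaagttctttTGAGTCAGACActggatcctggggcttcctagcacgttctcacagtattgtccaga
Ltbp4 upstream start, chr7:27337563-27337862, minus: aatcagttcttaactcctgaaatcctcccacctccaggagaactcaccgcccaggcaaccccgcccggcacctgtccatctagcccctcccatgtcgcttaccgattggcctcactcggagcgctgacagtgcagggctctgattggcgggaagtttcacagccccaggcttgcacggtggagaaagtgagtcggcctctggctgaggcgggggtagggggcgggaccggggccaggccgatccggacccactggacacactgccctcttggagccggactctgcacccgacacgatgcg
Motifs were searched on both strands. The upstream *Ltbp1* window holds the cyclic AMP response element TGACGTCA, present in 1.79% of 32851 mouse promoter windows of the same length. The internal *Ltbp1* window holds CAGACA, a SMAD-binding box found in 21.0% of windows, on the minus strand at both places in capitals. In *Ltbp3* an AP-1 site (TGACTCA, 5.20% of windows, here on the minus strand) runs into a CAGACA box, and the letters CA are shared. The SMAD palindrome GTCTAGAC (0.213% of windows), the PU.1 core GAGGAAGT (3.20%) and the ETS core CCGGAAGT (3.89%) were in none of the 11 windows. These matches describe letters and are not evidence of binding.

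The tables held 8947 and 6263 cells for aortas 1 and 2, with 47009780 and 30919996 UMIs. After filtering and doublet removal 6539 and 4614 cells were analyzed at a median of 5671 and 5396.5 UMIs per cell. Marker genes named 7 types. The structural ones were SMCs (2235 and 1615 cells), fibroblasts (1627 and 1141), the endothelium (785 and 730) and mesothelium (275 and 158), and the blood-derived ones were myeloid (906 and 573), lymphoid (620 and 360) and erythroid (23 and 13). Summed over each type, marker levels followed the names: the 6 SMC markers summed to 42014 and 40111 CPM (UMIs scaled to 1000000 per library) in SMCs against 524 to 2623 in the other nucleated wall and immune types, and the 8 endothelial markers to 6890 and 7545 CPM in endothelial cells against 35.6 to 365. Fibroblast markers were shared with mesothelial cells, at 5978 and 7746 CPM there against 23908 and 23359 in fibroblasts. Some clusters were less clear. In the 244 cells of the *Tnfrsf11b* and *Fst* cluster, counted as fibroblasts, SMC markers (15920 and 18549 CPM) exceeded fibroblast markers (7446 and 7176). The 155 cells of the *Mab21l2* and *Chrm2* cluster, also counted as fibroblasts, had SMC markers at 6770 and 11665 CPM beside fibroblast markers at 32241 and 23290, and 24 cells counted as mesothelial, led by *Cxcl13*, had more fibroblast (13514 and 10958 CPM) than mesothelial markers (1679 and 1227). With these 3 clusters left out, the counts of members called between types below were unchanged in all 5 comparisons. The 74 cells led by the cell cycle genes *Hist1h1b* and *Top2a*, counted as lymphocytes, had myeloid markers at 2962 and 3816 CPM beside lymphocyte markers at 5202 and 3933, and leaving them out changed 2 calls between myeloid cells and lymphocytes, given below. The *Msln* and *Upk3b* cluster, with 409 of the 433 mesothelial cells, had fibroblast markers at 4946 and 7506 CPM beside mesothelial markers at 7785 and 7286, and a comparison without it, which would leave only the 24 *Cxcl13* cells, was not run. Erythroid cells gave 0 to 26 UMIs per gene and aorta and are left out of the orders below. The 2 libraries shared 18 cell barcodes.

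*Ltbp1*, which links the complex to microfibrils, was most abundant in SMCs, at 424 and 456 CPM in aortas 1 and 2. Fibroblasts followed at 279 and 285 CPM, then mesothelial cells at 90.9 and 45.6, endothelial cells at 45.1 and 37.6, myeloid cells at 41.8 and 36.7 and lymphocytes at 17.1 and 23.2. The SMC and fibroblast values did not overlap, and their difference of 0.73 ± 0.13 (log2 fold change ± SE, edgeR quasi-likelihood test, Benjamini-Hochberg adjusted p = 4.71e-05) passed the p threshold but not the required log2 change of 1; it ranged from 0.47 with DESeq2 (adjusted p = 0.0437) to 0.93 without the 3 clusters of mixed markers. Fibroblasts stood above mesothelial cells by 2.15 ± 0.17 on the log2 scale, whereas endothelial and myeloid values overlapped. Relative to SMCs, the mesothelial and endothelial levels were above every SMC marker in aorta 1. In aorta 2 they were not, at 0.100 against up to 0.113 and 0.0824 against up to 0.0905. The part of carried-over SMC RNA in these levels was not tested. With each cell thinned to 1000 UMIs, an *Ltbp1* UMI was seen in 30.4% (exact 95% binomial interval 28.5 to 32.4) and 32.5% (30.2 to 34.9) of SMCs and in 1.43% and 2.62% of myeloid cells. Without thinning the SMC shares were 79.2% and 79.7% at median depths of 7732 and 7489 UMIs, against 8.17% and 8.20% of myeloid cells at 5619 and 5491. All intervals cover counting error only.

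*Ltbp2* was shared by the medial and adventitial cells. Fibroblasts had 138 and 104 CPM and SMCs 99.9 and 106, ranges that overlapped (log2 difference of SMC minus fibroblast −0.16 ± 0.14, adjusted p = 0.360, edgeR). Every other nucleated type lay at or below 14.9 CPM, with 11.6 and 12.3 in endothelial cells. Relative to fibroblasts, the mesothelial levels (0.0995 and 0.143) were within the range of single fibroblast markers there. The endothelial levels (0.0838 and 0.118) were within it in aorta 1 only, and the part of carried-over RNA was not tested. The even SMC and fibroblast means hid large differences between their clusters, given below.

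*Ltbp3* showed the flattest profile of the family across the structural types. Its levels were 242 and 236 CPM in fibroblasts, 217 and 233 in SMCs, 187 and 215 in mesothelial cells and 202 and 191 in endothelial cells. Myeloid cells (13.4 and 11.9 CPM) and lymphocytes (10.4 and 12.4) were far lower. The log2 difference between SMCs and fibroblasts was 0.0023 ± 0.09 (adjusted p = 0.997, edgeR), and its sign was negative under library-size scaling (−0.09) and DESeq2 scaling (−0.25). No structural type was called against another for this gene among the contrasts tested.

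*Ltbp4*, needed for elastic fiber assembly, was highest in the endothelium, with 1416 and 1417 CPM. Fibroblasts had 738 and 671 CPM, mesothelial cells 637 and 612 and SMCs 356 and 339, so that the 4 structural types did not overlap. The log2 difference was −1.81 ± 0.15 for SMCs minus endothelial cells (adjusted p = 3.92e-10, edgeR) and −0.88 ± 0.14 for fibroblasts minus endothelial cells (adjusted p = 2.25e-05). The latter is short of the fold threshold and reached −1.01 with library-size scaling. For SMCs minus fibroblasts it was −0.93 ± 0.14 (adjusted p = 8.89e-06), again short of the threshold, and −1.02 with library-size scaling or −1.19 with DESeq2. Myeloid cells and lymphocytes had 22.4 to 39.0 CPM. These were 0.0158 to 0.0276 of the endothelial level, within the range of the same ratio for single endothelial markers in those types, while the summed endothelial markers were at 43.1 and 35.6 CPM in myeloid cells and 98.4 and 136 in lymphocytes against 6890 and 7545 in endothelial cells. The part of carried-over endothelial RNA in these levels was not tested.

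As a share of all LTBP UMIs of a type, *Ltbp4* made up 85.0% ± 0.63 (SD) in endothelial cells, 68.8% ± 0.27 in mesothelial cells, 52.3% ± 0.74 in fibroblasts and 31.2% ± 1.78 in SMCs. *Ltbp1* ran the other way, from 2.48% ± 0.30 in endothelial cells through 21.0% ± 1.41 in fibroblasts to 39.5% ± 1.10 in SMCs. Summed over the 4 genes, LTBP transcripts reached 1674 and 1658 CPM in endothelial cells, 1398 and 1297 in fibroblasts, 1097 and 1133 in SMCs and 928 and 888 in mesothelial cells. These types did not overlap in the sum. Capture may differ between transcripts, so the shares are compared between cell types rather than between genes.

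**Figure D1:**
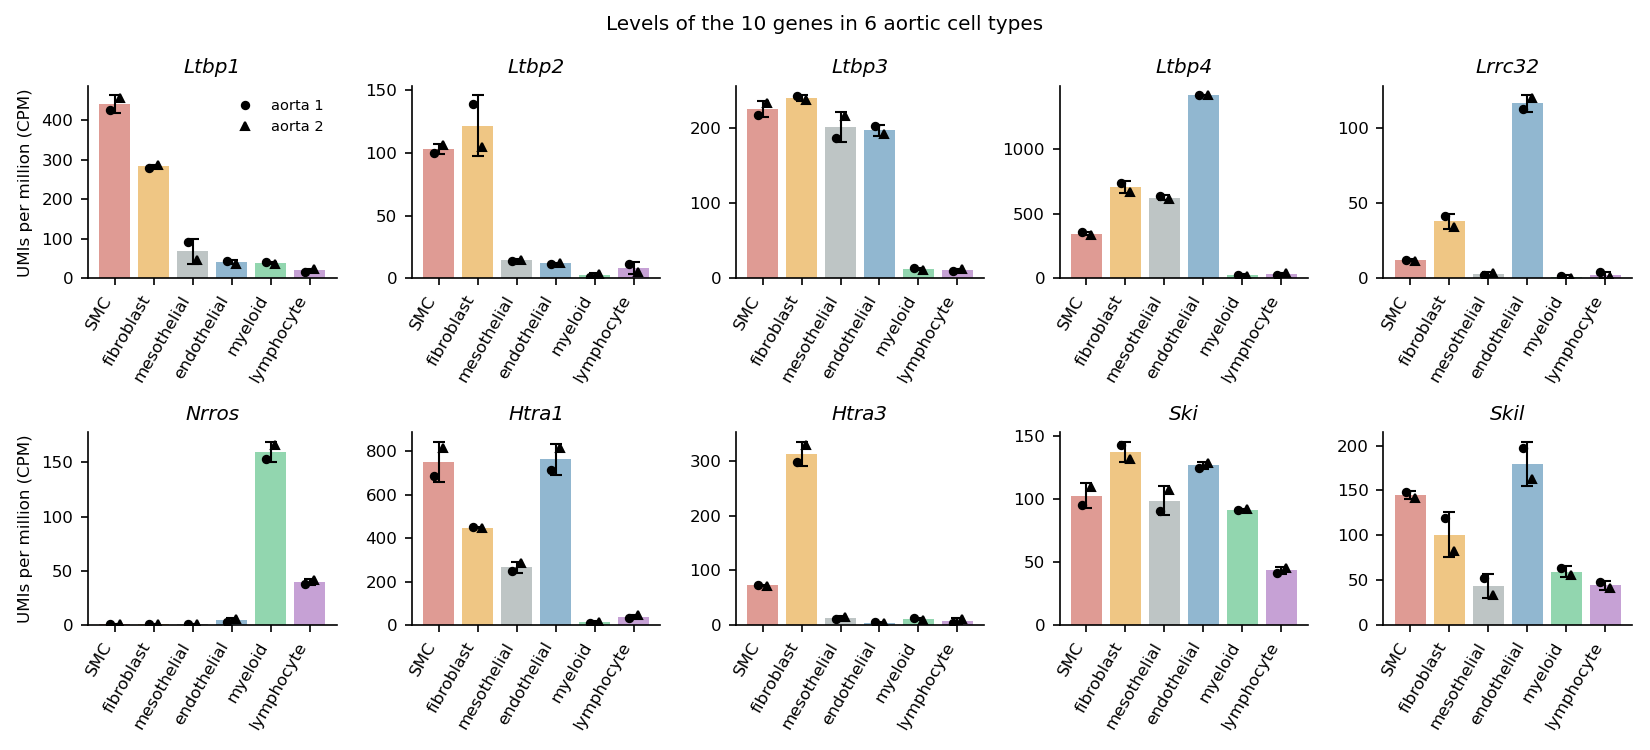
Levels of the 10 genes in CPM (vertical axis, linear from 0, a separate scale for each gene) in 6 cell types. Bars are means and error bars SDs of the 2 aortas, which are drawn as a circle and a triangle; *Ltbp4* and *Lrrc32* peak in endothelial cells, *Nrros* in myeloid cells, *Htra3* in fibroblasts and *Ltbp1* in SMCs.

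The membrane anchors split by lineage. *Lrrc32*, first known on platelets and regulatory T cells, had 113 and 120 CPM in endothelial cells. Fibroblasts had 41.6 and 34.3 CPM and SMCs 12.6 and 11.7, and each step down was called: endothelial cells over fibroblasts by 1.48 ± 0.14 (adjusted p = 1.44e-08, edgeR) and fibroblasts over SMCs by 1.55 ± 0.15 (adjusted p = 1.41e-08) on the log2 scale. The mesothelial, myeloid and lymphocyte libraries held 2 to 12 *Lrrc32* UMIs each, and the myeloid level (1.82 and 0.55 CPM) was within the range of single endothelial markers relative to their endothelial level. At 1000 UMIs per cell, 11.7% and 12.7% of endothelial cells had an *Lrrc32* UMI, against 4.67% and 3.94% of fibroblasts and 0.221% and 0% of myeloid cells (0 of 573 cells, upper exact bound 0.642%).

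*Nrros*, the anchor of macrophages and microglia, was a transcript of immune cells. Myeloid cells had 153 and 166 CPM and lymphocytes 37.9 and 41.3, a called log2 difference of 2.09 ± 0.13 (adjusted p = 1.17e-11, edgeR). SMCs, fibroblasts and mesothelial cells had 0.687 to 1.10 CPM, from 1 to 13 UMIs per library, and endothelial cells 3.13 and 5.54 CPM from 10 and 14 UMIs. Myeloid markers themselves reached up to 0.00493 and 0.00570 of their myeloid level in fibroblasts, close to the 0.00453 and 0.00606 measured for *Nrros*; in SMCs the *Nrros* ratios of 0.00508 and 0.00413 were above the highest marker (0.00324 and 0.00212). The calls of *Nrros* above SMCs and fibroblasts in endothelial cells (log2 differences of −2.25 ± 0.40 for SMCs and −2.19 ± 0.43 for fibroblasts, each minus endothelial cells) rest on those few UMIs, and did not pass with cells of 5000 UMIs or more (adjusted p = 0.148 and 0.107, edgeR). Of the UMIs of both anchors, *Nrros* gave 99.2% ± 0.60 (SD) in myeloid cells and 93.9% ± 4.90 in lymphocytes, and *Lrrc32* gave 96.4% ± 1.20 in endothelial cells, 97.8% ± 0.86 in fibroblasts and 94.3% ± 0.18 in SMCs.

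*Htra1*, whose human counterpart is mutated in a hereditary small-vessel disease of the brain, was high in 2 types whose values overlapped: endothelial cells with 713 and 814 CPM and SMCs with 686 and 818 (log2 difference of SMC minus endothelial 0.19 ± 0.15, adjusted p = 0.286, edgeR). The sign of this difference turned with library-size scaling and DESeq2 (both −0.02). It also turned without the SMC cluster led by *Dlx6* and *Msx2*, to −0.27 (adjusted p = 0.137, edgeR). Fibroblasts had 450 and 448 CPM and mesothelial cells 248 and 284. Immune cells were low, at 33.6 and 44.1 CPM in lymphocytes and 10.6 and 15.7 in myeloid cells. *Htra1* in SMCs was above that in fibroblasts by 0.83 ± 0.15 (adjusted p = 4.41e-05, edgeR), under the fold threshold, and by 0.37 (adjusted p = 0.0352, edgeR) without the SMC cluster led by *Dlx6* and *Msx2*.

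*Htra3* was a fibroblast transcript. It had 299 and 330 CPM in fibroblasts and 73.5 and 72.3 in SMCs, a log2 difference of −2.01 ± 0.12 for SMCs minus fibroblasts (adjusted p = 9.34e-13, edgeR). All other types were at or below 14.9 CPM. The endothelial values of 4.70 and 3.96 CPM were 0.0157 and 0.0120 of the fibroblast level and within the range of the same ratio for single fibroblast markers there, whose sum was at 1052 and 954 CPM in endothelial cells. The log2 differences of 6.28 ± 0.21 and 4.27 ± 0.24 by which fibroblasts and SMCs exceeded endothelial cells rest on 15 and 10 endothelial UMIs, and the part of carried-over fibroblast RNA in these was not tested. *Htra3* made up 41.2% ± 1.79 (SD) of the UMIs of both proteases in fibroblasts, 8.90% ± 1.10 in SMCs and 0.569% ± 0.12 in endothelial cells.

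The corepressors varied least between types. *Ski* had 143 and 132 CPM in fibroblasts, 125 and 129 in endothelial cells, 95.8 and 110 in SMCs, 90.9 and 107 in mesothelial cells, 91.7 and 92.0 in myeloid cells and 41.6 and 45.3 in lymphocytes. Neighbors in this order were not called until the step from myeloid cells to lymphocytes (1.16 ± 0.14, adjusted p = 2.66e-07, edgeR), and that step was 0.99, just under the fold threshold, with DESeq2. *Skil*, itself a TGF-β target, had 197 and 163 CPM in endothelial cells, 148 and 142 in SMCs, 119 and 82.9 in fibroblasts, 63.9 and 55.2 in myeloid cells, 48.0 and 40.7 in lymphocytes and 52.9 and 33.7 in mesothelial cells. SMCs exceeded fibroblasts in *Skil* by 0.61 ± 0.14 (adjusted p = 0.000791, edgeR; 0.140 with DESeq2), and fibroblasts exceeded mesothelial cells by 1.35 ± 0.21 (adjusted p = 1.22e-05), the latter a call.

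A list of 12 immediate early and heat shock genes, which can rise during tissue digestion, was measured beside the corepressors. All 12 had UMIs in each of the 6 nucleated types, and the list summed to 1862 and 1301 CPM in SMCs, 953 and 1154 in endothelial cells, 881 and 802 in myeloid cells, 754 and 653 in fibroblasts, 430 and 415 in mesothelial cells and 370 and 336 in lymphocytes. Its most abundant genes in SMCs were *Jun* (433 CPM) and *Hspa1a* (364 CPM), and each other type had a different leading pair. The part of handling in the *Skil* levels was not tested. Among the 5 SMC clusters described below, the *Mylk4* cluster had 2203 and 1482 CPM of the list and 135 and 123 CPM of *Skil*, and the *Pln* cluster 3109 and 1276 CPM of the list and 98.5 and 85.4 of *Skil*. The *Dlx6* cluster had 1060 and 919 CPM of the list beside 217 and 214 of *Skil*. The *Cyb5r3* cluster was low in both, at 639 and 983 CPM of the list and 79.1 and 67.6 of *Skil*, and the *Carmn* cluster had 1312 and 2786 CPM of the list and 199 and 182 of *Skil*.

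Next, the members were counted in 5 comparisons, where a gene was called at an adjusted p under 0.05 and a log2 change over 1. Between SMCs and fibroblasts 2 of 10 members were called, *Htra3* and *Lrrc32*, both higher in fibroblasts; 25.5% of all tested genes were called in this comparison, or 22.5% with markers and clustering genes set aside (38.9% of those calls were higher in SMCs, and 27.6% with DESeq2). Between SMCs and endothelial cells 6 of 10 were called against a background of 30.0% (26.5% with those genes set aside). *Htra3* (4.27 ± 0.24), *Ltbp1* (3.62 ± 0.17) and *Ltbp2* (3.32 ± 0.22) were higher in SMCs, and *Lrrc32* (−3.03 ± 0.15), *Nrros* (−2.25 ± 0.40) and *Ltbp4* (−1.81 ± 0.15) in endothelial cells, as log2 differences ± SE of SMCs minus endothelial cells. *Ltbp2* was at 2.11 without the *Dlx6* and *Msx2* cluster and *Htra3* at 2.76 with doublets kept, both still called, and *Nrros* lost its call in both endothelial comparisons with only cells of 5000 UMIs or more. Between fibroblasts and endothelial cells 5 of 10 were called (background 25.9%, or 21.8% with those genes set aside), with *Htra3*, *Ltbp2* (3.48 ± 0.22) and *Ltbp1* (2.89 ± 0.17) higher in fibroblasts and *Nrros* and *Lrrc32* in endothelial cells.

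Mesothelial cells, the outer cover of the vessel, and fibroblasts differed in 5 of 10 members (background 24.4%, or 21.5% with those genes set aside), and all 5 were higher in fibroblasts. The log2 differences of mesothelial cells minus fibroblasts were −4.84 ± 0.21 for *Htra3*, −3.93 ± 0.37 for *Lrrc32*, −3.29 ± 0.26 for *Ltbp2*, −2.15 ± 0.17 for *Ltbp1* and −1.35 ± 0.21 for *Skil*. *Htra1* (−0.95 ± 0.16, adjusted p = 4.32e-05, edgeR) was just short of the fold threshold and became a call with no gene filter (−1.004). *Ltbp4* (−0.36 ± 0.15, adjusted p = 0.0571) was not called. Myeloid cells and lymphocytes differed in 5 of 10 (background 31.6%, or 28.0% with those genes set aside): *Nrros*, *Ski* and *Ltbp1* (1.09 ± 0.23) were higher in myeloid cells and *Ltbp2* (−1.89 ± 0.50) and *Htra1* (−1.50 ± 0.25) in lymphocytes, as myeloid minus lymphocyte. *Ltbp2* rests on 8 and 14 UMIs against 34 and 9, and its log2 ratio of CPM was −3.11 in aorta 1 but −0.40 in aorta 2; that of *Ltbp1* was 1.29 in aorta 1 and 0.66 in aorta 2, and the call of *Ltbp1* was lost in 4 of 13 other settings. The count of 5 fell to 3 with doublets kept, where *Htra1* was at −0.77 and also lost its call, and to 3 with DESeq2, where *Ski* was at 0.99. Without the 74 cycling cells the count was again 5, but *Htra1* (−0.97) was no longer among them and *Htra3* was (2.11, adjusted p = 4.37e-05, edgeR, against 0.91 with those cells). Counts of members near the background, as between SMCs and fibroblasts, say nothing particular about these genes.

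**Figure D2:**
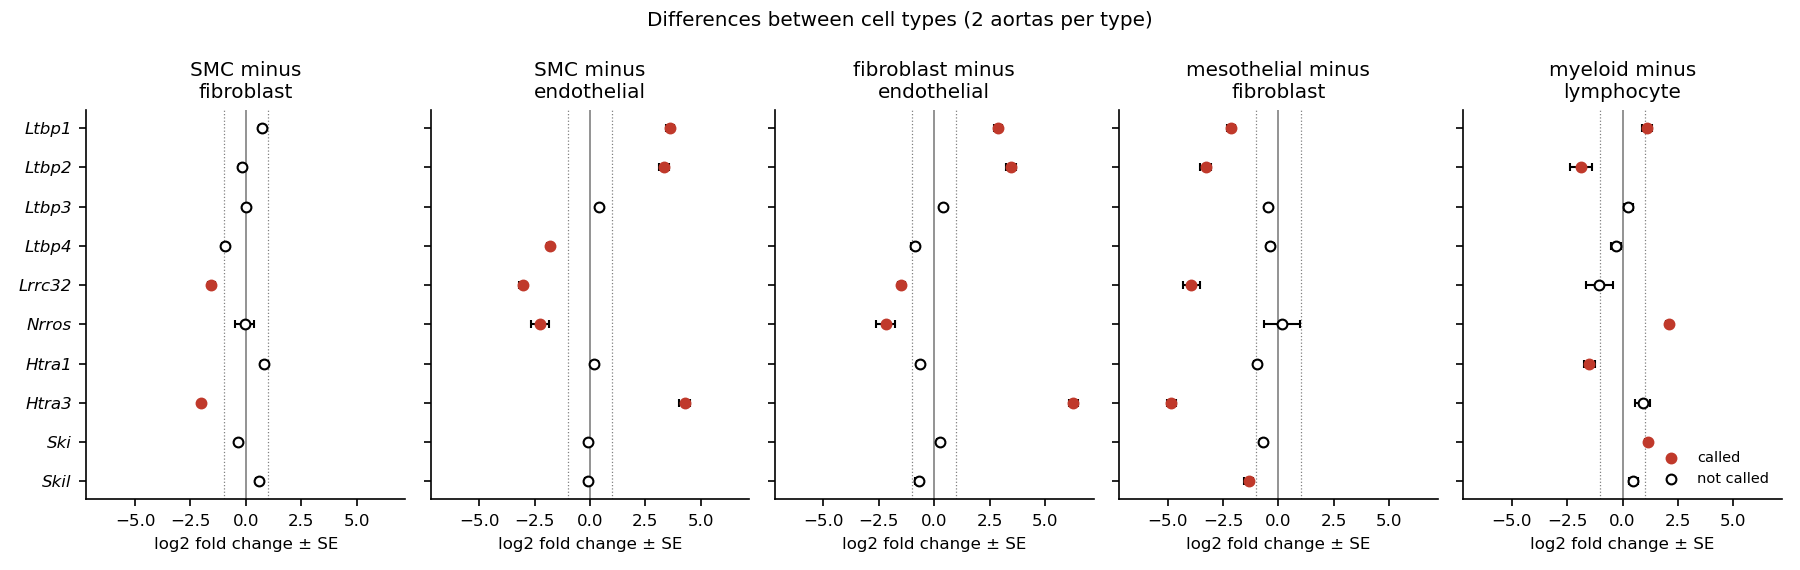
Log2 fold changes (horizontal axis) of the 10 genes in 5 comparisons of cell types, from the edgeR fit, with bars for the SE and dotted lines at 1 and −1. Filled points passed both thresholds: 2, 6, 5, 5 and 5 of the 10 genes from left to right.

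The median log2 difference of the 10 members lay near that of all 13966 genes in 2 of these comparisons, at −0.11 against −0.07 for SMCs minus fibroblasts and 0.05 against 0 for SMCs minus endothelial cells. It was −0.20 against 0.03 for fibroblasts minus endothelial cells, −1.15 against −0.11 for mesothelial cells minus fibroblasts and 0.38 against 0 for myeloid cells minus lymphocytes. DESeq2 scaling moved the median of all genes from −0.07 to −0.32 for SMCs minus fibroblasts and from 0 to −0.22 for SMCs minus endothelial cells, so values near 0 in those comparisons have no settled sign.

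Abundance per cell and the number of cells together set where the transcripts of the dissociated wall came from. SMCs gave 68.6% ± 1.70 (SD) of *Ltbp1* UMIs, 61.8% of *Htra1*, 56.7% of *Ltbp2*, 53.1% of *Skil*, 51.8% of *Ltbp3* and 39.6% of *Ski*. *Ltbp4* had no majority source, with 37.2% from fibroblasts, 30.6% from SMCs and 25.5% from endothelial cells. Fibroblasts gave 70.2% of *Htra3* and myeloid cells 85.2% of *Nrros*. *Lrrc32* was divided between endothelial cells (35.3% and 44.3% in aortas 1 and 2), fibroblasts (41.4% and 34.7%) and SMCs (20.7% and 19.8%). With only cells of 5000 to 25000 UMIs the endothelial share of *Lrrc32* was 22.9%, against a mean of 39.8%. The SMC shares depended on the *Dlx6* and *Msx2* cluster, described below, whose pericyte markers exceeded those of the largest SMC cluster. With its cells kept in the total but not counted as SMCs, the SMC shares were 43.4% for *Ltbp1*, 34.1% for *Skil*, 32.7% for *Htra1*, 32.3% for *Ltbp3*, 30.0% for *Ski* and 17.9% for *Ltbp2*, so that no gene had an SMC majority. Without the low-depth SMC clusters they were 64.7% for *Ltbp1*, 58.5% for *Htra1* and 48.4% for *Ltbp3*. The shares describe cells that survived digestion, not the intact wall.

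**Figure D3:**
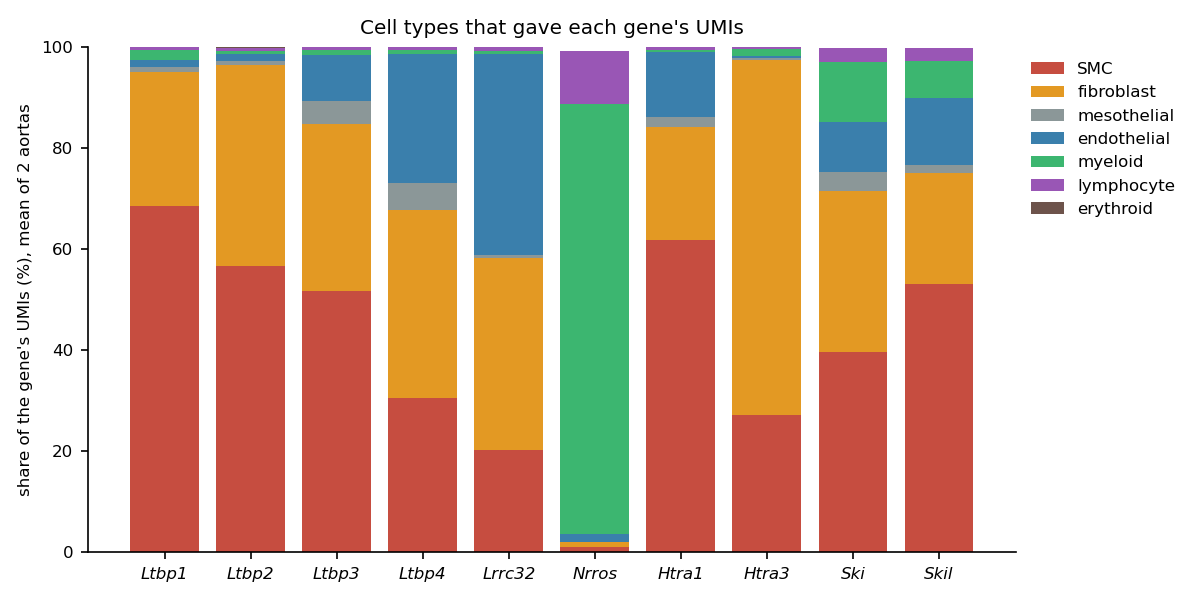
Share of each gene's UMIs in percent (vertical axis, mean of 2 aortas) that came from each of 7 cell types. SMCs hold 68.6% of *Ltbp1* and 61.8% of *Htra1* (43.4% and 32.7% when the *Dlx6* and *Msx2* cluster is not counted as SMC), and *Htra3* is mostly fibroblast-derived (70.2%) and *Nrros* myeloid (85.2%), whereas *Ltbp4* and *Lrrc32* come from 3 types.

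Within SMCs the genes were far from even. The cells fell into 5 clusters, drawn from other genes of the same cells with the members and the pathway genes left out, and 8 of the 9 members tested differed among them (quasi-likelihood F test, edgeR, adjusted p under 0.05), beside 45.6% of all genes tested. *Ski* did not pass (adjusted p = 0.163) and *Nrros* was too low to test. The cluster with the homeobox genes *Dlx6* and *Msx2* among its leading genes held 886 cells and was the highest of the 5 in *Htra1*, *Ltbp1*, *Ltbp2*, *Ltbp3*, *Ltbp4* and *Skil*. Its pericyte markers were higher than in the *Mylk4*-led cluster (3305 and 2835 against 488 and 632 CPM), while all 6 SMC markers were detected at 22856 and 24848 CPM, against 47587 and 46183.

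In the *Dlx6* cluster *Htra1* had 1450 and 1508 CPM, against 483 and 582 in the largest cluster, of 1913 cells led by *Mylk4* and *Wnt16* (adjusted p = 5.64e-10 for the 5 clusters). *Ltbp2* was at 319 and 273 CPM there, against 37.7 and 45.0 in the *Mylk4* cluster and 1.86 and 2.51 in the cluster of 114 cells led by *Pln* and *Notch3* (adjusted p = 3.14e-14). *Ltbp1* was at 667 and 681 against 366 and 391 CPM, and *Ltbp3* at 357 and 352 against 184 and 196. The aortas did not overlap between these clusters for any of the 4 genes. *Lrrc32* had the opposite pattern, with 2.47 and 0.986 CPM in the *Dlx6* cluster, 13.4 and 14.0 in the *Mylk4* cluster and 74.3 and 67.8 in the *Pln* and *Notch3* cluster (adjusted p = 3.11e-09). Without the *Dlx6* cluster, *Ltbp2* had a log2 difference of −1.37 for SMCs minus fibroblasts (adjusted p = 1.2e-07, edgeR), a call that the whole SMC population did not give. Clusters led by *Cyb5r3* and by *Carmn* had low median depths of 1873 and 1833 UMIs per cell, and leaving them out changed no call of a member between types.

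**Figure D4:**
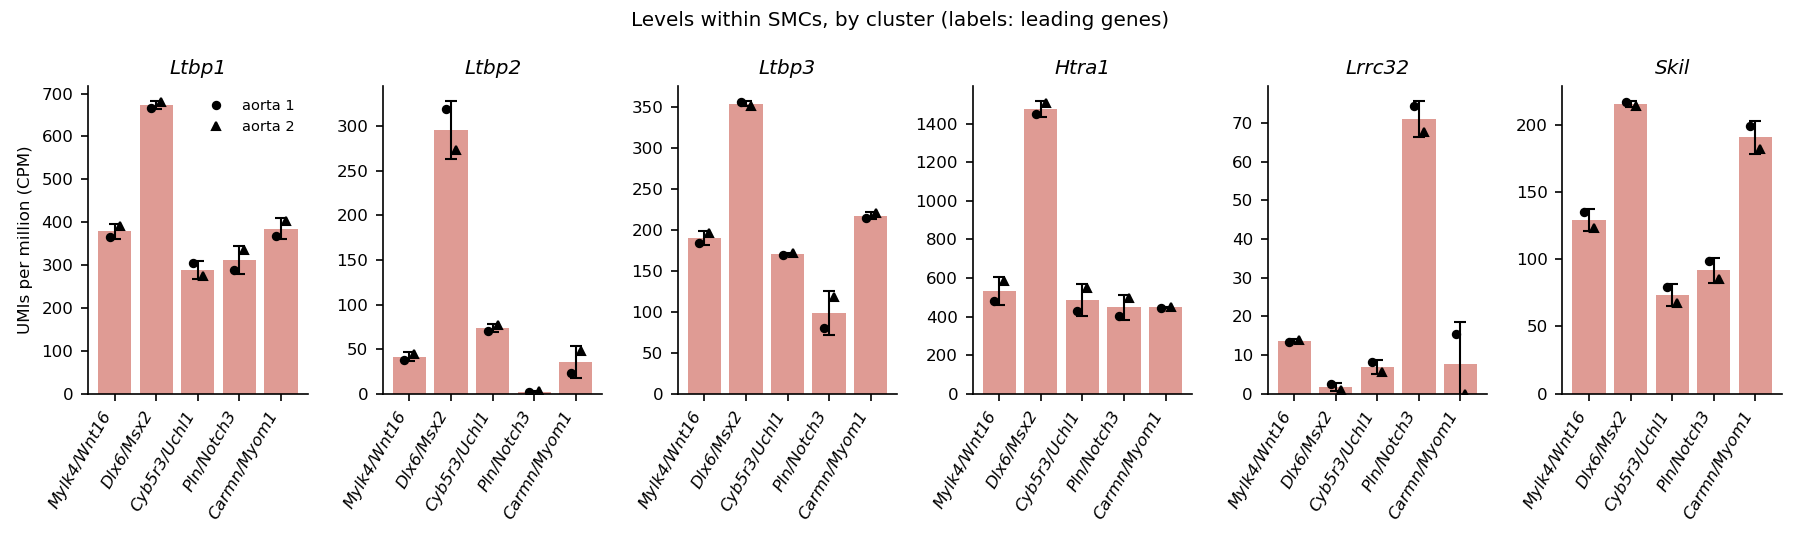
Levels in CPM (vertical axis, linear from 0) of 6 genes in the 5 SMC clusters, named by leading genes. Bars are means and error bars SDs of 2 aortas (circle and triangle); *Ltbp1*, *Ltbp2*, *Ltbp3* and *Htra1* stand highest in the *Dlx6* and *Msx2* cluster, where *Lrrc32* is lowest by mean.

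Fibroblasts formed 6 clusters, and all 9 members tested differed among them (edgeR F test; background 44.5%), *Nrros* again being too low to test. Without the *Tnfrsf11b* and *Mab21l2* clusters, whose SMC marker levels are given above, 8 of 9 differed among the other 4, beside 34.1% of all genes tested, and *Ski* did not (adjusted p = 0.153, edgeR). *Htra3* ranged from 606 and 561 CPM in the cluster led by *Pla1a* and *Dact2* to 64.0 and 55.0 in the cluster led by *Tnfrsf11b* and *Fst*, the cluster with more SMC than fibroblast marker UMIs (adjusted p = 4.69e-11; 1.47e-07 among the 4 clusters, where the lowest values were 216 and 249 CPM in the *Dio2* cluster). That same *Pla1a* and *Dact2* cluster had the lowest *Htra1*, at 250 and 227 CPM, against 538 and 591 in the *C1qtnf3* and *Hhip* cluster (adjusted p = 1.09e-06). It also had the lowest *Ltbp3* (103 and 112 CPM) and *Ltbp4* (426 and 379 CPM). *Ltbp2* was concentrated in the *Dio2* cluster (307 and 273 CPM) and in the *Tnfrsf11b* cluster of mixed markers (193 and 190), and did not exceed 46.4 CPM in the other 4 (adjusted p = 1.56e-09; 1.84e-09 among the 4 clusters without mixed markers).

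*Ltbp1* in cells counted as fibroblasts was highest in the *Mab21l2* and *Chrm2* cluster, at 722 and 519 CPM, beside SMC markers at 6770 and 11665 CPM there against 384 to 990 in the *Dio2*, *Penk*, *C1qtnf3* and *Pla1a* clusters. The part of SMC transcripts in this level was not tested. Among those 4 clusters the highest *Ltbp1* was 337 and 338 CPM, in the *Pla1a* cluster (adjusted p = 3.87e-05, edgeR). It was lowest in the *C1qtnf3* cluster, at 151 and 191 CPM (adjusted p = 1.88e-07 for the edgeR F test over all 6 clusters, mixed ones included). *Lrrc32* was almost missing from the *Mab21l2* cluster, with 2 and 0 UMIs, and lay between 26.6 and 64.0 CPM in the other 5. *Ltbp4* peaked in the *Penk* and *Cilp* cluster at 989 and 938 CPM. *Ski* (adjusted p = 0.0364) and *Skil* (adjusted p = 0.0422) passed narrowly and spanned 105 to 163 and 58.7 to 139 CPM.

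**Figure D5:**
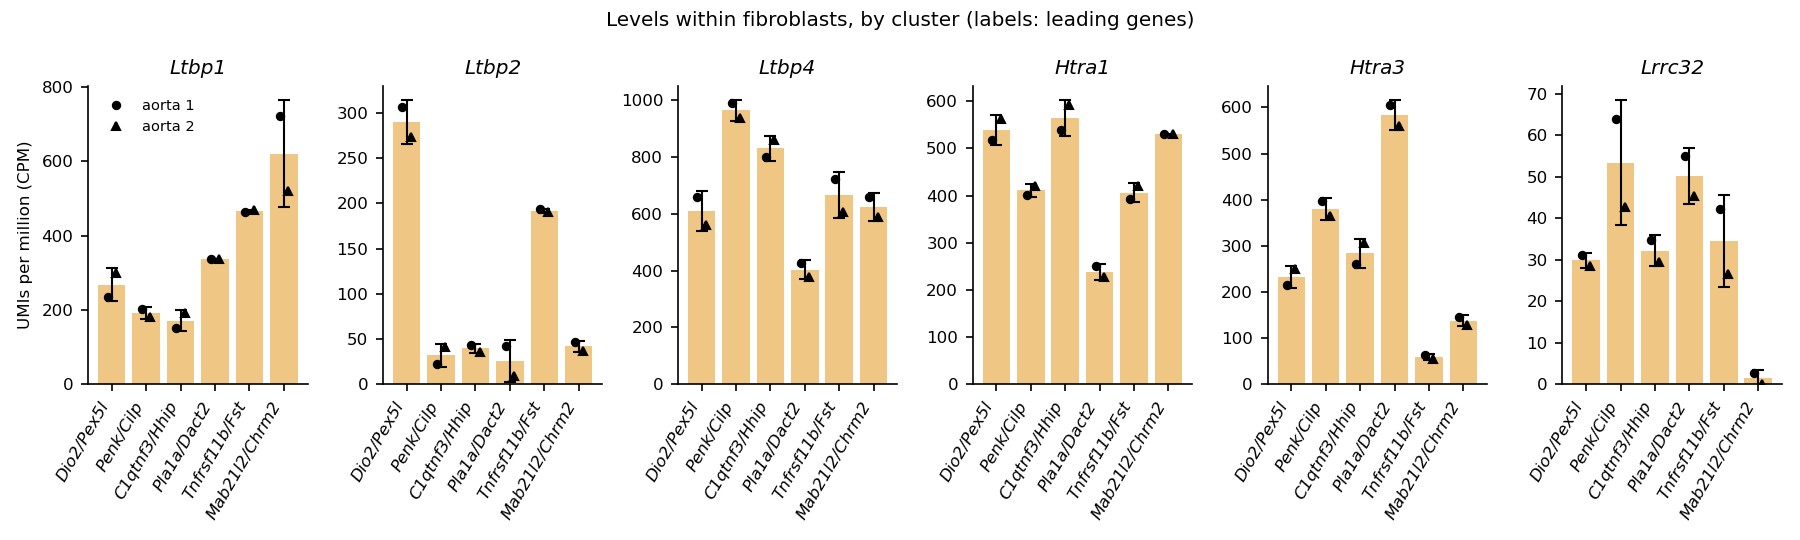
Levels in CPM (vertical axis, linear from 0) of 6 genes in the 6 fibroblast clusters, named by leading genes. Bars are means and error bars SDs of 2 aortas (circle and triangle); *Htra3* peaks where *Htra1* and *Ltbp4* are lowest, and *Ltbp2* is high in 2 clusters, of which the *Tnfrsf11b* cluster has more SMC than fibroblast marker UMIs.

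In the 5 endothelial clusters 5 of 7 members tested differed (background 35.0%). With doublets kept, clusters were drawn anew and the count was 8, for which the number tested was not recorded. *Htra1* had 816 and 976 CPM in the *Isl1* and *Klk10* cluster and 829 and 958 CPM in the *Adra2a* and *Emcn* cluster, against 54.0 and 19.7 in the cluster led by the lymphatic genes *Ccl21a* and *Mmrn1* and 137 and 38.6 in the *Gpihbp1* cluster, a capillary gene (adjusted p = 5.89e-14, edgeR F test). *Ltbp4* stayed high in the *Ccl21a* cluster (1441 and 1301 CPM) and was lowest in the *Gpihbp1* cluster (810 and 609), where *Ltbp3* was low too (61.8 and 9.66). *Skil* was at 202 and 195 CPM in the *Isl1* cluster and 89.3 and 77.3 in the *Gpihbp1* cluster (adjusted p = 8.8e-05). *Lrrc32*, with means of 91.6 to 162 CPM, did not pass (adjusted p = 0.0686, edgeR F test) but did with the aorta as a block (adjusted p = 0.0445), which made 6 of 7, and *Ski* passed in neither (adjusted p = 0.991 and 0.993). The *Gpihbp1* cluster had 40 and 49 cells at a median of 2230 UMIs, so its values are the least certain.

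Myeloid cells formed 6 clusters, and 6 of 8 members tested differed (background 63.9%). *Ltbp1* came mostly from 118 cells of the cluster led by *Alox15*, *Cd5l* and *Marco*, genes of serous-cavity and tissue macrophages, with 171 and 183 CPM. It had 6.50 and 8.12 CPM in the *Folr2* and *Cd163* cluster of 871 cells, 48.4 and 49.3 in the *Chil3* and *Plac8* cluster and no UMI in the *S100a9* and *S100a8* cluster (adjusted p = 4.5e-14, edgeR F test). The *Alox15* cluster gave 201 of the 252 myeloid *Ltbp1* UMIs in aorta 1 and 100 of 133 in aorta 2. At 1000 UMIs per cell, *Ltbp1* was detected in 11.7% (95% exact interval 5.49 to 21.0) and 14.6% (5.57 to 29.2) of its cells and in 0.558% and 1.50% of the *Folr2* cluster. *Htra3* was raised in the same cells, at 34.1 and 38.4 CPM against 4.79 and 2.17 in the *Folr2* cluster (adjusted p = 1.09e-05).

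Markers of cells rich in *Ltbp1* or *Htra3* were set beside that result. The SMC markers summed to 760 and 642 CPM in the *Alox15* cluster and 551 and 438 in the *Folr2* cluster, the fibroblast markers to 244 and 40.3 against 422 and 326, and the mesothelial markers to 12.8 and 3.66 against 3.08 and 3.79. The *Alox15* cells had a median of 15228.5 UMIs, the highest of any cluster. *Nrros* was expressed in all 6 clusters, from 73.3 and 107 CPM in the *S100a9* cluster to 204 and 222 in the *Folr2* cluster (adjusted p = 1.44e-05), and *Ski* was highest in the *Folr2* cluster too (125 and 129 CPM, adjusted p = 1.21e-05). *Skil* peaked in the *Mmp12* and *Cd207* cluster at 147 and 135 CPM (adjusted p = 2.23e-07). Among lymphocytes, where no test among clusters was set, *Nrros* was highest in the *Rag1* and *Dntt* cluster, genes of antigen receptor rearrangement, at 85.2 and 99.4 CPM from 25 and 16 UMIs, and 27.6 and 19.9 in the *Ms4a4b* and *Trac* cluster.

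The rest of the pathway gives the setting. Of 40 other genes for ligands, receptors, integrins, matrix partners, activators, SMADs and response genes, 38 were tested. Between SMCs and fibroblasts 6 of 38 were called higher in SMCs (background 9.90%) and 15 higher in fibroblasts (15.6%). The integrins *Itgb3* (2.23 ± 0.16) and *Itgb1* (1.57 ± 0.17) and the crosslinker *Tgm2* (1.49 ± 0.11) were on the SMC side, and the matrix adaptor *Tgfbi* (−7.73 ± 0.23), the protease *Mmp2* (−4.61 ± 0.12), the plasminogen activator *Plau* (−3.64 ± 0.39) and *Htra4* (−3.48 ± 0.21) the fibroblast side, as log2 differences ± SE of SMCs minus fibroblasts; in each comparison below the second type is likewise subtracted from the first. *Htra4*, a relative of *Htra1* and *Htra3*, had a mean of 26.5 CPM in fibroblasts and 2.16 in SMCs.

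SMCs against endothelial cells gave 9 of 38 higher in SMCs (background 14.1%) and 11 higher in endothelial cells (15.9%). *Ccn2* (3.87 ± 0.30), the ligand *Tgfb3* (3.43 ± 0.25) and *Itgb5* (2.32 ± 0.13) stood on the SMC side. On the endothelial side were the activator *Thbs1* (−6.12 ± 0.28) and the coreceptor *Eng* (−3.58 ± 0.12), with *Tgfbi* and *Mmp2*. Fibroblasts against endothelial cells gave 18 of 38 higher in fibroblasts (14.6%), led by *Tgfbi* (4.59 ± 0.20), the LTBP docking protein *Fbn1* (4.30 ± 0.26), *Tgfb3* (4.03 ± 0.24) and the LTBP-cleaving protease *Bmp1* (3.12 ± 0.14), and 5 higher in endothelial cells (11.3%), among them *Thbs1* (−4.31 ± 0.25), *Tgm2*, *Eng* and *Tgfb1* (−1.92 ± 0.13). The fibrillin gene *Fbn1* averaged 1218 CPM in fibroblasts and 67.2 in endothelial cells.

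Mesothelial cells against fibroblasts gave 3 of 38 higher in mesothelial cells (background 10.4%): *Tgm2* (2.90 ± 0.12), the ligand *Tgfb2* (2.09 ± 0.17) and the activating integrin *Itgb8* (1.71 ± 0.21). Another 18 were higher in fibroblasts (14.0%), with *Mmp2*, *Tgfbi* and *Ccn2* (−5.24 ± 0.37) among the 4 largest. The remaining gene of those 4, *Htra4*, had no mesothelial UMI. Myeloid cells exceeded lymphocytes in 18 of 38 (18.2%), led by *Tgfbi* (4.70 ± 0.22), *Mmp9* (4.59 ± 0.26), *Tgfb2* (4.08 ± 0.39) and *Fn1* (3.88 ± 0.42). Lymphocytes exceeded myeloid cells in 4 (13.3%), including the inhibitory *Smad7* (−2.75 ± 0.19), *Tgfbr3* (−1.73 ± 0.29) and *Fbn1* (−1.32 ± 0.39).

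Finally, the genes whose log2(CPM + 1) followed each member most closely over the 14 pseudobulk libraries (7 types in 2 aortas) were listed as a description. *Nrros* went with the hematopoietic signaling genes *Gapt*, *Dok3* and *Btk* (Pearson r of 0.987, 0.986 and 0.985). *Lrrc32* went with *Dnm3*, *Acacb* and the endothelial diaphragm gene *Plvap* (0.974, 0.970 and 0.968). *Ltbp4* went with *Twist1*, *Fbxl7* and the junction gene *Tjp1* (0.988, 0.988 and 0.984), and *Ltbp1* with *Faxc*, *Tulp1* and *Fbxl13* (0.972, 0.969 and 0.961). *Ltbp2* followed *Foxp2* and *C1qtnf2* (0.972 and 0.969), and *Ltbp3* 4921504A21Rik and *Pcdhb20* (0.981 and 0.978). *Htra1* followed *Ehd2*, *Mgll* and *Hmgn3* (0.983, 0.976 and 0.975), and *Htra3* *Epha3*, *Ank2* and the microfibril-associated *Mfap4* (0.950, 0.949 and 0.949). *Ski* followed *Itm2c*, *Zswim8* and *Mbnl2* (0.998, 0.996 and 0.994), and *Skil* *Lap3*, *Snrk* and *Ctnnb1* (0.990, 0.983 and 0.979). The points share the 2 aortas, and cell type differences dominate them. The low erythroid libraries widen the range of each member except *Ltbp1*, *Ltbp3* and *Htra1*.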

How the data were processed

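Single cells of 2 thoracic aortas, digested cold and sorted as viable singlets without selection for GFP, were profiled with Chromium 3′ v3.1 chemistry. The authors deposited raw UMI counts per gene and cell, made with Cell Ranger 4.0.0 per the file headers on mm10 with reporter sequences added; Seurat 4.0 is named in the submitters' processing notes. The annotation release is not given in the sources used here, and gene positions are from GENCODE vM21 on the same build.

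From those counts, cells with over 200 genes, 1000 to 25000 UMIs and under 10% mitochondrial UMIs were kept, Scrublet doublets removed (3.04% and 1.79%) and cells clustered (scanpy 1.11.5, leidenalg 0.10.2, 2000 variable genes, 30 components, resolution 1) without the members and the 40 pathway genes. The study stated 6278 and 4300 cells after its filter; 6539 and 4614 remained here. Clusters were named from marker lists. A cluster that scored as pericyte with every SMC marker detected was counted as SMC, a rule set after the clusters were seen. UMIs were summed per aorta and type (or cluster) and tested with edgeR 4.0.16 (TMM, filterByExpr, quasi-likelihood, cell type as the only term, all types in 1 fit) in R 4.3.3, with Benjamini-Hochberg adjustment over 13966 genes. DESeq2 1.42.0 was an alternative. Tests were checked on simulated data.

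Same-numbered libraries come from the same aorta, so the numbers pair them: deviations of the types correlated by −0.04 to 0.10 over 21 pairs of types (median 0.04). Totals were 1009006 to 16742060 UMIs per library for the 6 nucleated types. The p-values rest on the spread between the 2 aortas within a type or cluster, pooled over all types or clusters of a fit and moderated across genes. Libraries of the same aorta entered as independent, except with the aorta as a block. For carry-over of free RNA, a member's level relative to its highest type was set beside the same ratio for that type's markers. Text names all members, at most 4 called pathway genes per comparison and direction with at least 20 UMIs per aorta in the higher type, and the 3 genes most like each member; some genes that the rule picks are not reported here. The members and lists were chosen with earlier results of these data known. Alternatives are in the closing section.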

Additional observations from a re-analysis of the deposited data

Results flagged for a closer look

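A pair of small clusters, 92 cells in all, was named no cell type and entered no comparison, yet held UMIs of some members above the count of 3 used as the limit of detection. The cluster of 79 cells led by the macrophage genes *Ccl8*, *Fcrls* and *Pf4*, with a median of 1404 UMIs per cell, had 15 UMIs of *Nrros*, 10 of *Ski*, 6 of *Skil*, 5 of *Ltbp4* and 5 of *Htra1*. The cluster of 13 cells had *Xist*, *Ccl4*, *Ccl3*, *P2ry12* and *Cx3cr1* among its leading genes. Its cells were all from aorta 1, with a median of 1299 UMIs, and held 8 UMIs of *Skil*. Both were left unnamed by the rules on markers and depth, and the source of these UMIs was not tested.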

How the results depend on the processing

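For 13 settings other than the reported one, values were recomputed for the 5 comparisons between types that the text counts, 4 of them (SMCs without the *Dlx6* and *Msx2* cluster, without low-UMI clusters, all types without the 3 clusters of mixed markers, and lymphocytes without the cycling cluster) added after seeing the data. Recomputed gene counts numbered 206, of which 203 kept within a factor of 1.5. Members called between myeloid cells and lymphocytes fell from 5 to 3 with doublets kept and to 3 with DESeq2. Members differing among endothelial clusters went from 5 of 7 tested to 8 with doublets kept, where clusters were drawn anew. The number tested and the share of all genes called there were not recorded, so these counts cannot be compared as shares. Of 650 log2 differences of members, 15 changed sign, all uncalled. For SMC minus fibroblast these were *Ltbp2* (0.0150 at 5000 UMIs or more per cell), *Ltbp3* (−0.0892 library size only, −0.00704 resolution 2, −0.0100 members used for clustering, −0.220 without the *Dlx6* cluster, −0.0302 without mixed clusters, −0.255 DESeq2) and *Nrros* (0.322 at 5000 UMIs, 0.00374 without the *Dlx6* cluster). For SMC minus endothelial it was *Htra1* (−0.0217 library size only, −0.266 without the *Dlx6* cluster, −0.0194 DESeq2), for mesothelial minus fibroblast *Nrros* (−0.371 without mixed clusters), and for myeloid minus lymphocyte *Ltbp3* (−0.380 at 5000 UMIs) and *Ltbp4* (0.0665 doublets kept). Calls lost were those of *Nrros* in endothelial cells at 5000 UMIs and, between myeloid cells and lymphocytes, *Ltbp1* in 4 settings (lowest 0.39), *Htra1* (−0.77 with doublets kept, −0.97 without the cycling cluster) and *Ski* (0.99, DESeq2). Calls gained were those of *Ltbp4* for SMC minus fibroblast (−1.02 library size only, −1.19 DESeq2) and fibroblast minus endothelial (−1.01 library size only), *Ltbp2* for SMC minus fibroblast (−1.37 without the *Dlx6* cluster), *Htra1* for mesothelial minus fibroblast (−1.004 no gene filter) and *Htra3* for myeloid minus lymphocyte (2.11 without the cycling cluster). The cause was not tested. With the aorta as a replicate block the members called were 2, 6, 5, 5 and 5 in the 5 comparisons, and 8, 9, 6 and 6 among SMC, fibroblast, endothelial and myeloid clusters, no call of a member between types changed, and among clusters *Lrrc32* gained one in endothelial cells (adjusted p = 0.0445 against 0.0686, edgeR). One aorta alone leaves no residual degrees of freedom and gives a value without a test; no called member changed sign. Depth limits *Nrros* outside immune cells, *Lrrc32* in mesothelial and immune cells, and everything in erythroid cells.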
